A study of Mus musculus with 8 samples.

Results

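The fibrillins, fibulins and their elastic microfibril partners were followed in primary mouse astrocytes across genotype and TGF-β stimulation. The members were the 10 genes FBN1, FBN2, ELN, FBLN1, FBLN2, FBLN5, EFEMP2, MFAP2, MFAP5 and EMILIN1, chosen by name from the 13937 genes of the deposited count table, and all 10 were found and passed the filter on low counts. Astrocytes came from the brains of C57BL/6 pups on postnatal day 1, either wild type (WT) or lacking RGC-32, the product of RGCC (knockout, KO). The meninges were removed before the brains were minced. Cells of all groups were expanded in serum, cleared of loosely attached cells by shaking and starved of serum overnight. They were then left untreated (control) or stimulated with TGF-β at 10 ng/ml for 24 h. The 4 groups of bulk RNA sequencing, WT control, WT TGF-β, KO control and KO TGF-β, held 2 biological replicates each. How many pups contributed to a culture is not given in the sources used here.

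Elastic fibers consist of a core of crosslinked elastin laid down on a scaffold of fibrillin microfibrils. Fibulins and microfibril-associated glycoproteins bridge elastin, fibrillin and the crosslinking lysyl oxidases, and EMILIN1 sits at the interface of core and scaffold. Fibrillin microfibrils also anchor the latent complexes in which TGF-β is stored, so that the same structures that respond to TGF-β hold it in the matrix. In brain tissue such proteins are best known from vessel walls and meninges.

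Total counts ran from 14920561 to 18956038 per library (median 15857266). The chi-square per degree of freedom between replicates was 6.14 to 10.1, above the 1 of pure counting noise. RGCC, the deleted gene, had 80 and 94 counts in WT control, 215 and 362 in WT TGF-β, 61 and 28 in KO control, and 64 and 26 in KO TGF-β, so every KO library was below every WT library and none was at 0. All 10 astrocyte markers examined were above 1 CPM (a count scaled to the TMM-normalized library total) in every library, led by GFAP at a mean of 1788 CPM and AQP4 at 902. The study reported that nearly all of the isolated cells expressed the GFAP protein. In the RNA, markers of other cells were also present. Of the 14 measured fibroblast markers, 13 exceeded 1 CPM in every library, led by COL1A1 and COL1A2, and of the 8 measured smooth muscle and pericyte markers all 8 did, led by ACTA2 and TAGLN. All 10 microglia or macrophage markers did so too, led by CSF1R and C1QA, and summed to 1047 to 1383 CPM. The oligodendrocyte lineage list (7 of 9 markers in the count table) summed to 286 to 376 CPM. The neuron list (5 of 10) summed to 280 to 397 CPM and the ependymal list (6 of 8) to 233 to 443. MAP2 and STMN2 led the neuron list, while RBFOX3, SNAP25, DCX, SLC17A6 and NEFL were not in the count table. The endothelial list (6 of 8), with CDH5 and KDR highest, summed to only 61.3 to 125 CPM. In bulk RNA, fewer cells of a type and less RNA per cell cannot be told apart.

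Per unit of transcript length, the members spanned a wide range of levels in unstimulated cells, as the plot of FPKM by library shows. EFEMP2, also called fibulin-4, which brings lysyl oxidase to elastin, was the most abundant in both genotypes, at 99.9 FPKM ± 6.63 (SD, n = 2) in WT control and 96.2 ± 1.88 in KO control. EMILIN1 followed at 39.7 ± 9.59 FPKM and FBLN5, an elastin-binding fibulin that also binds integrins, at 33.4 ± 0.339 in WT control, and the libraries of these neighbours overlapped. FBN2, the fibrillin best known from development, was the lowest of the 10 in every group, with 1.52 ± 0.201 FPKM in WT control and 1.06 ± 0.00732 in KO control. FBN1, the main fibrillin of postnatal microfibrils, held the eighth place in both controls, at 9.44 ± 0.453 and 7.96 ± 0.0531 FPKM.

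After TGF-β the order changed at the top. ELN, which encodes the elastin precursor, became the most abundant member, at 213 ± 71.6 FPKM in WT and 174 ± 1.20 in KO, and its libraries lay above those of EFEMP2, now in second place at 110 ± 4.57 and 109 ± 0.306. In WT TGF-β cells FBLN2, FBLN5 and EMILIN1 came next at 73.8 ± 4.96, 72.8 ± 11.8 and 70.5 ± 5.76 FPKM, and neighbours in this stretch overlapped. In KO TGF-β cells FBLN5 and EMILIN1 also overlapped, at 70.4 ± 7.34 and 66.7 ± 11.2 FPKM, but FBLN2 lay below both at 42.0 ± 2.73.

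**Figure D1:**
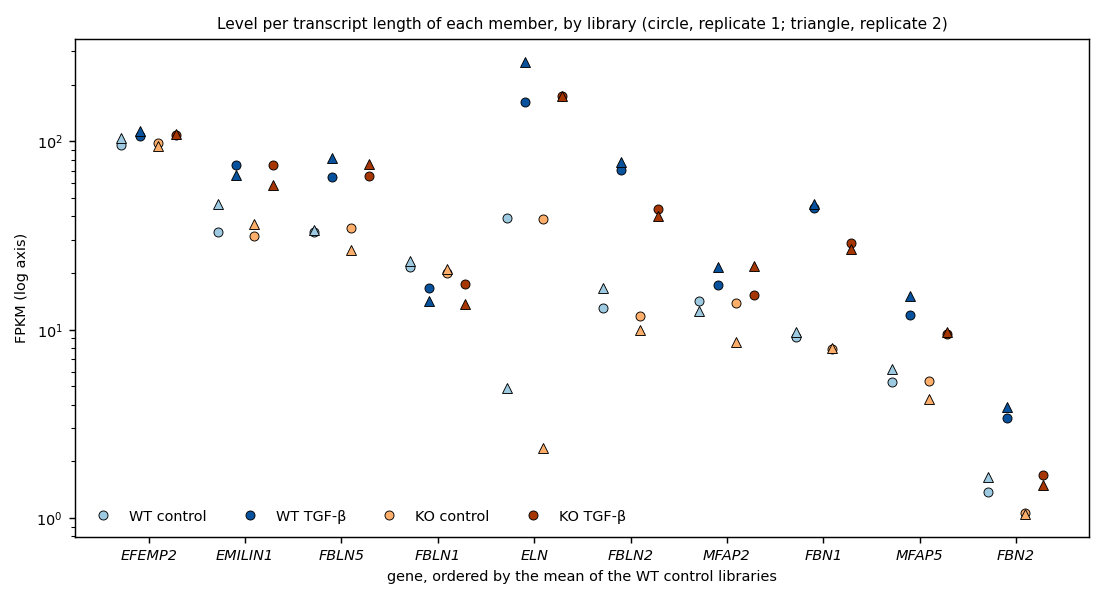
FPKM of each member (log axis) in each of the 8 libraries, with genes in the order of their WT control means, circles for replicate 1 and triangles for replicate 2. ELN has the widest spread of controls, 4.89 to 39.2 FPKM in WT and 2.35 to 38.8 in KO, and FBN2 is lowest in all 4 groups.

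The question of the first comparison was how astrocytes respond to TGF-β. In WT cells 6 of the 10 members rose past the threshold (a log2 change of 0.6 or more in size, with adjusted p under 0.05 in edgeR's quasi-likelihood test) and none fell, whereas 7.53% of all 13509 genes tested rose. The median log2 fold change of the members was 1.22, against 0.00 over all genes. In KO cells 7 members rose and none fell, against 6.43% of all genes that rose, with a median of 1.25 against 0.00. The 6 members that rose in WT, namely FBN1, FBN2, FBLN2, FBLN5, MFAP5 and EMILIN1, also rose in KO, where MFAP2 was the further one. In CPM, both TGF-β libraries lay above both controls for 9 members in WT, where 35.4% of all genes did so, and for the same 9 in KO, where 34.3% did. FBLN1 was the exception in both genotypes. Summed over the 10 members, the level went from 1111 CPM ± 38.6 to 3892 ± 952 in WT and from 949 ± 210 to 3053 ± 238 in KO (SD, n = 2). Without ELN, which did not pass, it went from 974 ± 96.8 to 2496 ± 341 and from 821 ± 65.3 to 1934 ± 116.

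**Figure D2:**
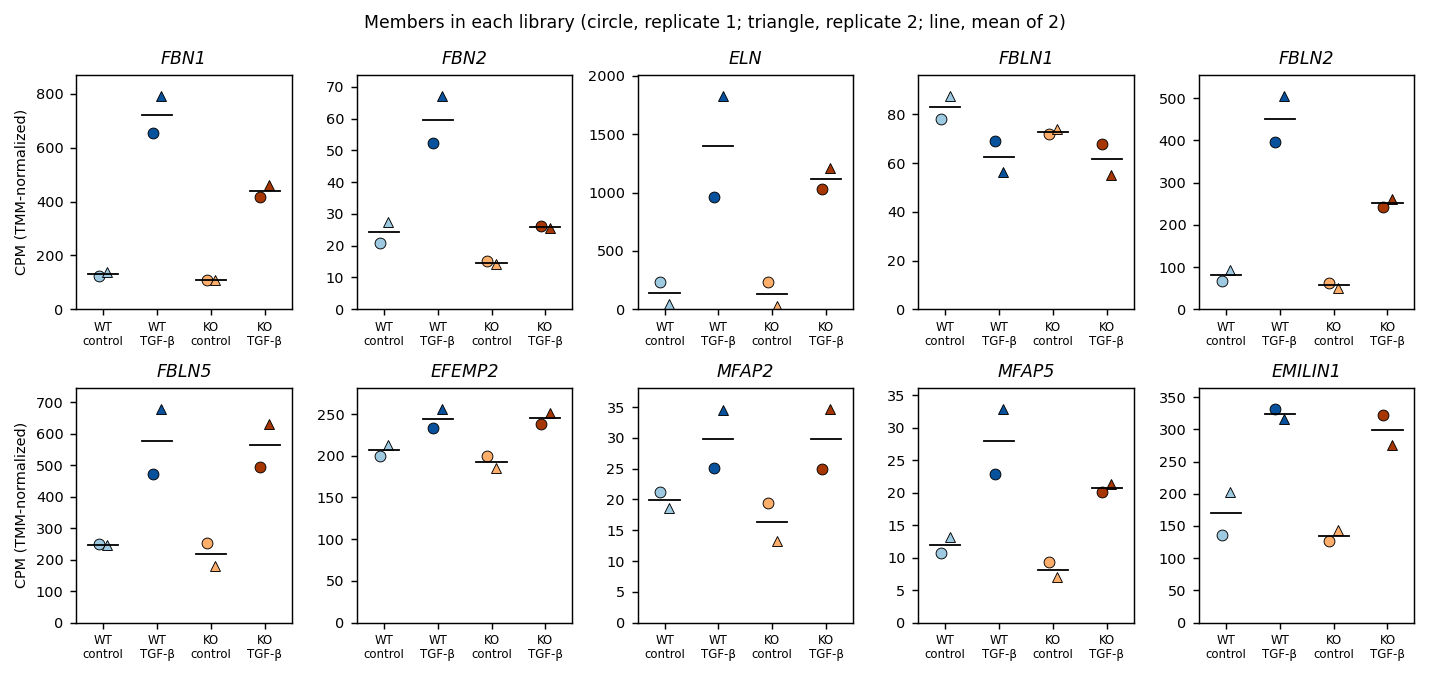
TMM-normalized CPM of each member by group, with circles for replicate 1, triangles for replicate 2 and a line at the mean of 2 libraries; each panel has its own axis from 0. All panels except FBLN1 show both TGF-β libraries above both controls of the same genotype, and FBN1, FBN2, FBLN2 and MFAP5 show both WT TGF-β libraries above both KO TGF-β libraries.

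The fibrillins build the microfibril itself. FBN1 (chromosome 2, 125300594 to 125507993 on GRCm38, minus strand, 65 exons in its longest GENCODE transcript) had 1914 and 2344 counts in WT control and 11815 and 12389 in WT TGF-β, or 123 and 140 against 653 and 792 CPM. It had 110 and 107 CPM in KO control and 416 and 460 in KO TGF-β. Stimulated and unstimulated libraries were thus far apart in both genotypes, and the KO cells ended lower than the WT cells. FBN1 rose 5.49-fold in WT (log2 fold change 2.46, SE 0.11, adjusted p = 2.82e-05) and 4.05-fold in KO (2.02, SE 0.11, adjusted p = 3.89e-05), and both calls held in all 23 alternative analyses that kept the fold limit.

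FBN2 (chromosome 18, 58008623 to 58210487, minus strand) was much scarcer, with 323 and 461 counts in WT control, 945 and 1050 in WT TGF-β, 237 and 239 in KO control, and 392 and 386 in KO TGF-β. In CPM this was 20.8 and 27.5 against 52.2 and 67.1 in WT, and 15.1 and 14.2 against 26.3 and 25.5 in KO. The stimulated KO libraries lay within the range of the unstimulated WT libraries. FBN2 rose 2.46-fold in WT (log2 fold change 1.30, SE 0.15, adjusted p = 0.000750) and 1.77-fold in KO (0.82, SE 0.17, adjusted p = 0.00917). The call in KO held in 17 of 23 alternatives and was lost without KO control replicate 2 (adjusted p = 0.0676), without KO TGF-β replicate 1 (0.0558) or 2 (0.0553), and on all 3 scalings of FPKM, where the log2 change was 0.33 to 0.55.

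Because the 2 fibrillins responded by different amounts, their proportion shifted. The FPKM of FBN1 was 6.26 ± 0.531 times that of FBN2 in WT control and 12.5 ± 0.699 times in WT TGF-β, and 7.53 ± 0.102 and 17.5 ± 0.671 times in KO (SD, n = 2). Every stimulated library was above every control, and after TGF-β both KO ratios, 16.98 and 17.93, exceeded both WT ratios, 12.97 and 11.98. The ratios are given as a description, without a test.

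ELN (chromosome 5, 134702593 to 134747323, minus strand) showed the widest gap between group means and the poorest agreement between replicates. It had 232 and 40.7 CPM in WT control, 964 and 1828 in WT TGF-β, 231 and 26.0 in KO control, and 1033 and 1206 in KO TGF-β. All stimulated libraries were higher than all controls, but control replicate 1 exceeded control replicate 2 by 5.71-fold in WT and 8.88-fold in KO. The fitted change was 10.2-fold in WT (95% interval 0.894 to 117, log2 fold change 3.36, SE 1.34, adjusted p = 0.126) and 8.74-fold in KO (0.779 to 98.0, log2 fold change 3.13, SE 1.33, adjusted p = 0.153), and neither passed the threshold.

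These ELN values rested on which control libraries were used. Leaving out control replicate 1 of both genotypes, an alternative added after the data were seen, gave log2 fold changes of 5.09 in WT (adjusted p = 0.0133) and 5.41 in KO (0.0150), both past the threshold. Leaving out control replicate 2 of both gave 2.59 (0.0429) and 2.28 (0.0598). DESeq2 on all 8 libraries called ELN in both genotypes (adjusted p = 0.0193 and 0.0362). Of 23 alternatives, only 4 called ELN in WT and 2 in KO. The ratio of FPKM to CPM of ELN varied by 1.87-fold between libraries, being lowest in KO control replicate 2, while that of the other members varied by 1.16-fold to 1.35-fold.

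The fibulins gave 3 kinds of response. FBLN2 (chromosome 6, 91212455 to 91272540, plus strand), which binds fibrillin, fibronectin and proteoglycans, had 67.3 and 93.9 CPM in WT control, 396 and 506 in WT TGF-β, 63.3 and 50.4 in KO control, and 242 and 261 in KO TGF-β. Its response was the size of that of FBN1. FBLN2 rose 5.58-fold in WT (log2 fold change 2.48, SE 0.20, adjusted p = 0.000331) and 4.43-fold in KO (2.15, SE 0.20, adjusted p = 0.000690), and all 23 alternatives kept both calls.

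FBLN5 (chromosome 12, 101746565 to 101819055, minus strand) had 249 and 246 CPM in WT control, 473 and 678 in WT TGF-β, 253 and 180 in KO control, and 493 and 632 in KO TGF-β. Both genotypes reached the same range. FBLN5 rose 2.33-fold in WT (log2 fold change 1.22, SE 0.23, adjusted p = 0.00900) and 2.60-fold in KO (1.38, SE 0.23, adjusted p = 0.00688), and lost the WT call without WT control replicate 2 (adjusted p = 0.0543) and both calls without control replicate 2 of both genotypes (0.0518 and 0.0635). EFEMP2 (chromosome 19, 5473954 to 5482517, plus strand) moved little, from 200 and 213 to 233 and 256 CPM in WT and from 200 and 185 to 239 and 251 in KO. Its libraries did not overlap, but log2 fold changes of 0.24 (adjusted p = 0.0344) and 0.35 (0.0095) stayed under the fold limit. EFEMP2 overlaps MUS81 on the other strand by 173 bases, and GENCODE places unnamed opposite-strand genes over 2793 bases of FBN1, 282 of ELN and 236 of FBN2, where unstranded reads cannot be told apart.

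FBLN1 (chromosome 15, 85205949 to 85286535, plus strand), a fibulin found with fibrillin, fibronectin and aggregating proteoglycans, was the single member with a lower level after TGF-β. It had 78.2 and 87.6 CPM in WT control against 69.1 and 56.4 in WT TGF-β, and 72.0 and 73.9 in KO control against 67.9 and 55.2 in KO TGF-β. The 2 groups of a genotype did not overlap, though the distance was small. The log2 fold changes were -0.40 for WT (SE 0.12, adjusted p = 0.0384) and -0.25 in KO (SE 0.12, adjusted p = 0.173), so neither passed the threshold, and no alternative with the fold limit called FBLN1. The FPKM of FBLN2 was 0.663 ± 0.0798 times that of FBLN1 in WT control and 4.82 ± 0.868 times in WT TGF-β, and 0.535 ± 0.0800 and 2.71 ± 0.288 times in KO.

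**Figure D3:**
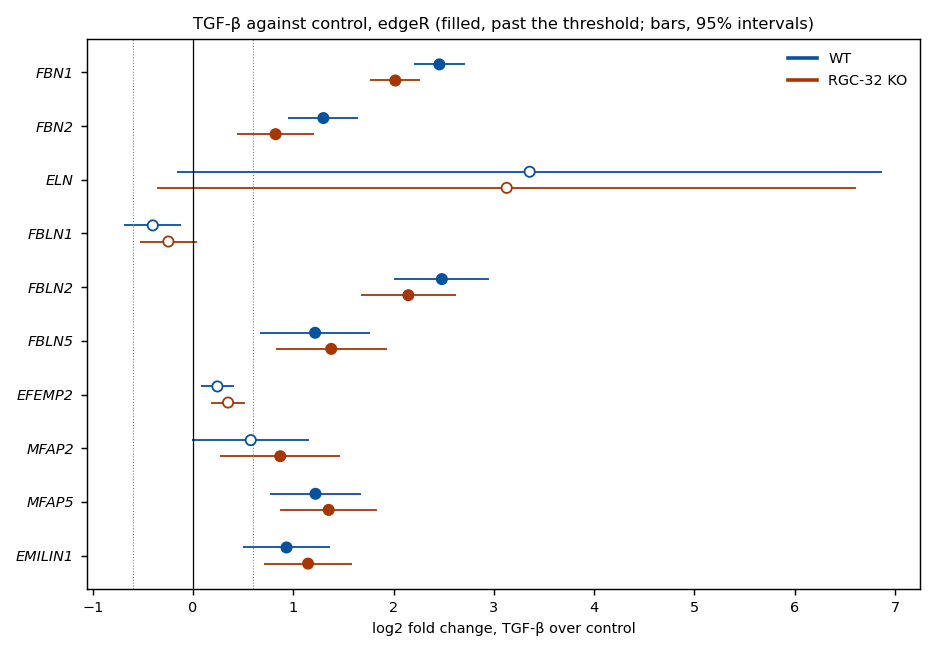
Log2 fold change of each member after TGF-β (horizontal axis) with its 95% interval, for WT and KO; filled points passed the threshold and dotted lines mark the fold limit of 0.6. FBN1 and FBLN2 lie above 2 in both genotypes, the intervals of ELN include 0, and FBLN1 is the single member to the left of 0.

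The microfibril-associated glycoproteins bind the fibrillin beads and, in the case of MFAP2 (also called MAGP1), tropoelastin and TGF-β. MFAP5 (MAGP2, chromosome 6, 122505845 to 122529290, plus strand) had 10.7 and 13.1 CPM in WT control, 22.9 and 32.9 in WT TGF-β, 9.25 and 6.98 in KO control, and 20.1 and 21.3 in KO TGF-β. It rose 2.33-fold in WT (log2 fold change 1.22, SE 0.20, adjusted p = 0.00301) and 2.55-fold in KO (1.35, SE 0.21, adjusted p = 0.00312), with both calls kept in all 23 alternatives.

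MFAP2 (chromosome 4, 141010418 to 141015984, plus strand) had 21.3 and 18.6 CPM in WT control, 25.0 and 34.5 in WT TGF-β, 19.5 and 13.3 in KO control, and 24.9 and 34.7 in KO TGF-β. The stimulated levels of the 2 genotypes were nearly identical, and the spread within them was large. MFAP2 rose 1.83-fold in KO (log2 fold change 0.87, SE 0.25, adjusted p = 0.0415) while its WT value was 0.58 on the log2 scale (SE 0.24, adjusted p = 0.117). The KO call held in 12 of 23 alternatives and was lost without KO control replicate 2 (adjusted p = 0.178), without KO TGF-β replicate 2 (0.215) or without WT control replicate 1 (0.0558) or 2 (0.0614), with the replicate block (0.0821), with upper quartile scaling (0.0505) and on FPKM. The difference between the genotypes' responses, a log2 value of -0.29, was smaller than its SE of 0.35.

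EMILIN1 (chromosome 5, 30913402 to 30921277, plus strand), an elastin-binding glycoprotein that restrains the processing of the TGF-β precursor, had 136 and 203 CPM in WT control, 331 and 315 in WT TGF-β, 126 and 144 in KO control, and 323 and 275 in KO TGF-β. It rose 1.91-fold in WT (log2 fold change 0.93, SE 0.18, adjusted p = 0.00965) and 2.21-fold in KO (1.15, SE 0.19, adjusted p = 0.00534). The WT call was lost without WT TGF-β replicate 1 (adjusted p = 0.0521) or 2 (0.0554), while the KO call held in all 23 alternatives.

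Markers of other cells were set beside these genes. The summed level of the 14 measured fibroblast markers ranged from 4320 to 5504 CPM in WT control, 9019 to 10240 in WT TGF-β, 3518 to 3742 in KO control and 6736 to 6822 in KO TGF-β. The sum was led by COL1A1 and COL1A2, while over the 13 tested markers 4 rose and 2 fell past the threshold in WT, and 2 rose and 1 fell in KO, with median log2 fold changes of -0.13 and -0.09. The lowest of the 14 by mean CPM were the meningeal transporter SLC6A13, at 0.00 to 1.28 CPM, and the matrix proteoglycan LUM, at 2.75 to 5.07. Others of the list were higher, such as DCN, FOXC1 and FOXD1 at means of 253, 124 and 56.1 CPM. The summed smooth muscle and pericyte markers ranged from 4459 to 4736 and 9140 to 10720 CPM in WT, and from 4051 to 4101 and 8931 to 10290 in KO, with 6 of 8 past the threshold upward in both genotypes. The astrocyte markers summed to 4639 to 4907 CPM in WT control against 3682 to 3783 in WT TGF-β, and to 5365 to 6137 in KO control against 4513 to 4840 in KO TGF-β, with 1 of 10, the glutamate transporter SLC1A2, past the threshold downward in each genotype. Of 6 ependymal markers tested, of which FOXJ1 and RSPH1 had the highest levels, 6 fell in WT and 3 in KO, and their sum was 372 to 430 CPM against 233 to 262 in WT and 395 to 443 against 283 to 294 in KO. The part of these markers in the response of the members was not tested.

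The next comparison asked which members differed between the genotypes once stimulated. After TGF-β, FBN2, FBN1 and FBLN2 were higher in both WT libraries than in both KO libraries, by 2.30-fold, 1.65-fold and 1.79-fold, but none of the 10 members passed the threshold in edgeR, against 0.0222% of all genes in this direction (3 of 13509). At an unadjusted p under 0.05, 3 of 10 members differed, against 11.7% of all genes. RGCC, the deleted gene, was 5.80-fold higher in WT (log2 difference 2.54, SE 0.53, adjusted p = 0.178) and did not pass in edgeR either. It passed in 1 of 22 alternatives. FBN2 had a log2 difference of 1.20 (SE 0.15, adjusted p = 0.0611), FBN1 of 0.72 (SE 0.10, adjusted p = 0.0684) and FBLN2 of 0.84 (SE 0.19, adjusted p = 0.190). The study had itself listed these 3 genes as higher in WT after TGF-β, with DESeq2 on the same libraries. Their direction here, and the DESeq2 calls given below, are therefore not independent evidence. By real-time PCR the study also reported FBN1 and FBN2 as significantly higher in stimulated WT cells, and FBLN2 as higher without significance. The median log2 difference of the 10 members was 0.22, against 0.00 over all genes.

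The verdict on these 3 genes depended on the tool and on the libraries used. Of 22 alternatives, 7 called FBN1, 6 called FBN2 and 2 called FBLN2. DESeq2 on all 8 libraries called FBN2 (adjusted p = 1.15e-08), FBN1 (4.75e-07) and FBLN2 (2.90e-05) as higher in WT, where it called 0.158% of all genes in that direction. With the replicate number as a block, edgeR gave 0.0356 for both FBN1 and FBN2. FBN1 also passed on log2(FPKM + 1) (adjusted p = 0.0172), and without WT TGF-β replicate 1 both FBN1 (0.0459) and FBN2 (0.0361) passed. FBN2 passed as well without WT control replicate 1 (0.0414) or 2 (0.0416). Over all alternatives the adjusted p ran from 2.02e-10 to 0.615 for FBN2, from 3.14e-07 to 0.498 for FBN1 and from 2.86e-08 to 0.794 for FBLN2.

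For the other 7 members no difference passed the threshold under any of the 22 alternatives. MFAP5 had a log2 difference of 0.43 (95% interval of the fold 0.995 to 1.82), with both WT libraries above both KO libraries. In CPM, 4 of the 10 members were separated in this sense, against 22.4% of all genes. EFEMP2 was bounded most closely, at 0.889-fold to 1.12-fold, followed by FBLN1 at 0.837-fold to 1.24-fold. FBLN5 (0.702-fold to 1.49-fold), EMILIN1 (0.802-fold to 1.46-fold) and MFAP2 (0.672-fold to 1.48-fold) had wider intervals, and ELN, at 0.137-fold to 11.4-fold, was barely bounded at all.

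**Figure D4:**
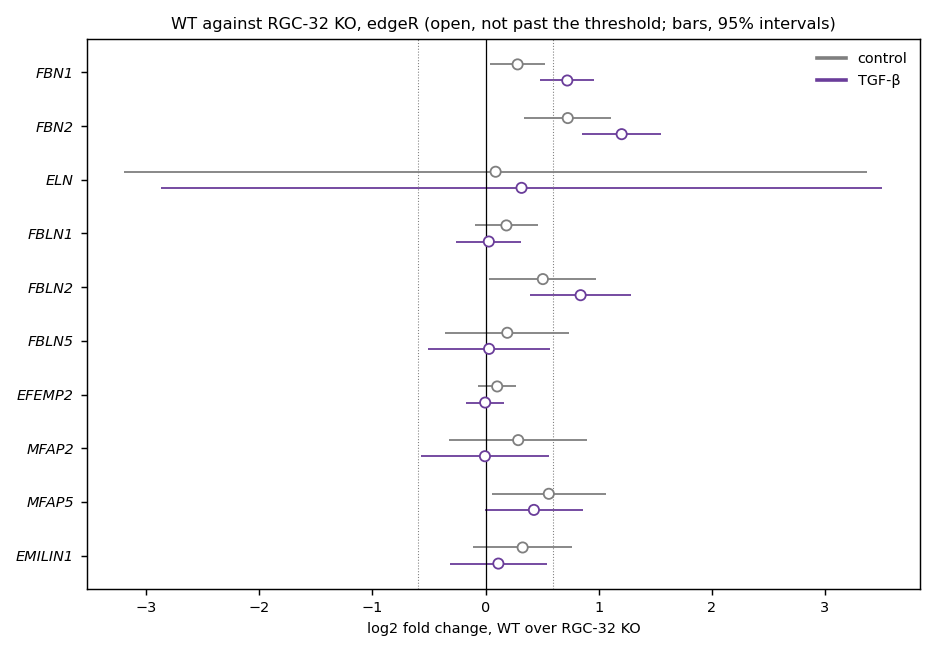
Log2 difference of each member between WT and KO (horizontal axis, positive where WT is higher) with its 95% interval, in control cells (grey) and after TGF-β (purple); open points did not pass the threshold and dotted lines mark 0.6 in either direction. FBN1, FBN2 and FBLN2 lie farthest to the right after TGF-β, with log2 differences of 0.72, 1.20 and 0.84.

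In unstimulated cells no member passed the threshold between genotypes in edgeR, against 0.0074% of all genes higher in WT (1 of 13509). FBN2 again had the largest difference, a log2 value of 0.73 (SE 0.17, adjusted p = 0.410), followed by MFAP5 at 0.56 (SE 0.22) and FBLN2 at 0.51 (SE 0.20), both with adjusted p values of 0.694 and 0.705. Both WT libraries were above both KO libraries for 6 of 10 members, FBN1, FBN2, FBLN1, FBLN2, EFEMP2 and MFAP5, against 17.4% of all genes, and the reverse held for none. At an unadjusted p under 0.05, 4 of 10 members differed, against 6.76% of all genes. Only DESeq2 on all 8 libraries called FBN2 here (adjusted p = 0.0420). RGCC, the deleted gene, had a log2 difference of 0.97 in edgeR (SE 0.58, adjusted p = 0.816) and did not pass.

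Whether TGF-β acted on the members to a different extent in the 2 genotypes was tested as an interaction. No member, and no gene of the 13509, had an adjusted p under 0.05 in edgeR, nor by DESeq2 on all 8 libraries, in which 76 genes had an unadjusted p under 0.05. FBN1 had the smallest unadjusted p of the members, 0.0178, with a response larger in WT by a log2 value of 0.44 (SE 0.15, adjusted p = 1.00). That was 1 of 10 members at an unadjusted p under 0.05, against 2.83% of all genes, or 382 genes. FBN2 followed at 0.48 (SE 0.22, adjusted p = 1.00). The other members ranged from -0.29 for MFAP2 to 0.33 for FBLN2. The comparison after TGF-β and the responses within a genotype use the same stimulated libraries and are not independent of each other.

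The summed level of the fibroblast markers after TGF-β was 9019 to 10240 CPM in WT against 6736 to 6822 in KO, and 4320 to 5504 against 3518 to 3742 in control cells. Their median log2 difference, WT over KO, was 0.31 after TGF-β and 0.24 in control, and 0 of 13 passed the threshold in either state. The median of the astrocyte markers was -0.21 in both states, and 0 of 10 passed. The part of these markers in the genotype differences was not tested.

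The wider elastic fiber machinery was examined through 51 partner genes in 10 lists, of which 44 were tested. In WT 26 rose and 6 fell after TGF-β, where 7.53% of all genes rose and 5.54% fell, and in KO 25 rose and 5 fell, where 6.43% and 4.89% did, with median log2 fold changes of 0.89 and 0.85 against 0.00 for all genes. ADAMTSL2, a secreted glycoprotein that binds fibrillin and latent TGF-β binding protein, changed most, by a log2 value of 3.998 (SE 0.21, adjusted p = 3.74e-05) in WT and 4.453 in KO (SE 0.21, adjusted p = 3.89e-05). It had 2.19 and 1.49 CPM in WT control, 25.5 and 33.4 in WT TGF-β, 1.85 and 1.48 in KO control, and 35.0 and 38.0 in KO TGF-β.

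LOX, the enzyme that crosslinks elastin and collagen, rose by 2.88 on the log2 scale in WT (SE 0.17, adjusted p = 5.71e-05) and 2.71 in KO (SE 0.17, adjusted p = 7.86e-05). MFAP4, a microfibril protein that binds elastin and fibrillin, rose by 2.80 (SE 0.14, adjusted p = 4.21e-05) and 3.09 (SE 0.14, adjusted p = 3.89e-05). All 3 calls held in all 23 alternatives in both genotypes.

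By list, all 5 lysyl oxidases rose in both genotypes, with median log2 fold changes of 2.27 in WT and 2.10 in KO. Of the 4 latent TGF-β binding proteins, which fibrillin holds in the matrix, 3 rose in both, with medians of 1.34 and 1.14, and LTBP4 did not pass. Of the 8 microfibril-binding ADAMTS and ADAMTS-like proteins, 5 rose in WT and 4 in KO, and 1, THSD4, fell in both, by 2.68 and 2.33 on the log2 scale. Of the 3 profibrillin convertases, which trim the fibrillin precursor, 2 rose in both, and the third, PCSK5, had log2 fold changes of 0.83 and 0.85 that did not pass. Of 7 integrin chains tested, 5 rose in WT and 4 in KO, while ITGA8 fell in both, by 0.84 and 0.69.

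Of the 3 fibulin relatives tested, EFEMP1 (fibulin-3) fell by 1.03 in WT and 0.95 in KO on the log2 scale, FBLN7 fell by 0.76 and 0.68, and HMCN1, at log2 values of 0.41 and 0.74, did not pass. Of the 3 further microfibril-associated proteins, MFAP4 alone passed. EMILIN2, the single tested relative of EMILIN1, had log2 values of -0.46 and -0.34 and did not pass. Among 5 proteases that degrade elastin, MMP2 rose and MMP12 fell in both genotypes, and MMP9 rose in KO. Of the 5 fibrillin-bound matrix partners, VCAN, HSPG2, FN1 and BGN rose in both, and DCN fell in WT. Apart from ADAMTSL2, LOX, MFAP4 and HSPG2, the partners were named after their values were seen.

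HSPG2, the basement membrane proteoglycan perlecan, was the single partner past the threshold between genotypes after TGF-β, with a log2 difference of 0.79 (SE 0.09, adjusted p = 0.0290) in favor of WT. By real-time PCR the study also reported HSPG2 as significantly higher in stimulated WT cells. HSPG2 belongs to the same list that the study drew from these libraries. The call held in 13 of 22 alternatives and was lost when any 1 of the 4 stimulated libraries was left out (adjusted p = 0.0888 to 0.287) or either WT control library (0.0555 and 0.0570), and on FPKM. Among all 44 partners 11 had an unadjusted p under 0.05 in this comparison, against 11.7% of all genes, and no partner passed between genotypes in control cells. The partners include VCAN as well as HSPG2, both on the study's list, so the count of 11 is not independent of that list.

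**Figure D5:**
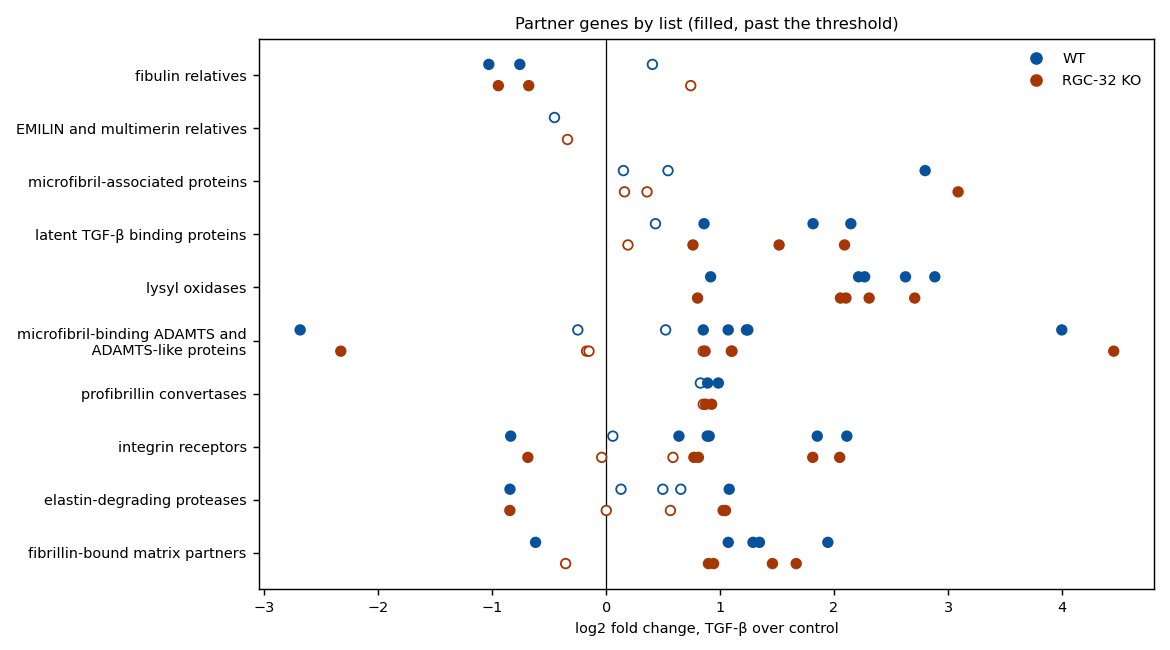
Log2 fold change after TGF-β (horizontal axis) of the 44 partner genes tested, 1 point per gene, arranged by list, with WT in blue and KO in brown; filled points passed the threshold. The 5 lysyl oxidases lie right of 0 with all points filled, while the 2 filled fibulin relatives lie left of 0.

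Over the 8 libraries the members other than FBLN1 followed each other. Pearson's r of log2 CPM was 0.994 between FBN1 and FBLN2 and 0.981 between FBLN5 and EFEMP2, and the lowest value without FBLN1 was 0.660, between FBN2 and ELN. FBLN1 correlated negatively with all 9 others, from -0.45 with FBN2 to -0.83 with FBLN5. These values describe 8 points that share the TGF-β response and carry no p. Among all genes with a mean of at least 10 CPM, those most like FBN1 were MLEC (r = 0.998), MLXIP (0.998) and HDLBP (0.997), and those most like FBN2 were SLIT2 (0.991), MAML1 (0.988) and EPG5 (0.988). The genes most like ELN were CRABP2 (0.995), LAMA1 (0.992) and TMEM208 (0.990), those most like FBLN1 were NOV (0.981), PRSS35 (0.970) and LRIF1 (0.967), and those most like FBLN2 were SLC38A10 (0.998), RUSC2 (0.997) and ZFP469 (0.996).

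The remaining members had equally close neighbours. FBLN5 was closest to FKBP1A (0.997), SH3GL1 (0.997) and COQ10B (0.996), and EFEMP2 to CHRD (0.994), MYL6 (0.993) and MYL12A (0.993). MFAP2 was closest to RNF181 (0.994), NONO (0.990) and PCYOX1 (0.985), and EMILIN1 to FAM20A (0.998), ANGPTL2 (0.994) and MAPK8 (0.992). MFAP5 was closest to CCDC3 (0.997), ADAMTS10 (0.996) and GLI2 (0.995). ADAMTS10, a protease that binds fibrillin microfibrils, is itself among the partner genes.

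The members' RefSeq promoter windows (GRCm38.p6, 250 bases before to 50 after a transcript start) were searched on both strands for letters that TGF-β-linked factors bind. Windows were given for 7 members, 12 windows in all, and not for FBN2, ELN and MFAP5. The SMAD-binding element CAGAC was in 7 of the 12 windows, of 5 members (EFEMP2, EMILIN1, FBLN1, FBLN5 and MFAP2), and in 49.6% of all 32851 windows. The 2 windows of FBLN1 overlap and hold the same 2 sites, and the share of 49.6% is per window and not per gene. The palindrome GTCTAGAC, which does not contain CAGAC, was in 0 of 12 windows and 0.213% of all, the AP-1 element TGANTCA in 0 and 7.81%, and the TEAD element GGAATG in 1, of MFAP2, and 14.7%. The windows of FBN1 and FBLN2, which had the largest changes among the members past the threshold, held none of these motifs. A stretch before a start of FBLN5, which rose, and one before a start of FBLN1, which did not, are shown because both hold 2 copies of CAGAC, in capitals (GTCTG is CAGAC read on the other strand). The FBLN5 stretch precedes a start inside the gene, and the 250 bases before its upstream start hold none. Neither stretch overlaps a GENCODE exon.
FBLN5 (chr12:101818485-101818733, minus strand): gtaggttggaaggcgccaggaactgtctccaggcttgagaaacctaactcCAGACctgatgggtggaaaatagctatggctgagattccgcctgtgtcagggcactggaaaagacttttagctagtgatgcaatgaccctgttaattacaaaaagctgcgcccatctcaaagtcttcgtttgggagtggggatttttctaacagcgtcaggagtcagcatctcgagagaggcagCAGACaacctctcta
FBLN1 (chr15:85205699-85205948, plus strand): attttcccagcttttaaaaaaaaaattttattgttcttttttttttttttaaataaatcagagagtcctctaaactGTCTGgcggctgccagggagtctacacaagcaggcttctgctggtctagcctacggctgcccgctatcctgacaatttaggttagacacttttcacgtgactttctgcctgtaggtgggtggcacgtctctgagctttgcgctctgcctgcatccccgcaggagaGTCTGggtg
A match of these letters is a description of the window and not evidence of binding.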

How the data were processed

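Unstranded reads were aligned by the authors with STAR (VIPER pipeline), and raw counts of 13937 genes, as whole numbers under gene symbols, were deposited. The submitters' processing notes name the build mm10, while the counting program and annotation are not given in the sources used here. The authors also deposited FPKM values, ascribed to Cufflinks, for 18644 genes, which served here for levels per length and as an alternative. The deposited DESeq2 tables hold the authors' fold changes and p-values for TGF-β against control and were not used. Among the count rows, 21 symbols had become dates, and none concerned a member.

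The counts were fitted in edgeR 4.0.16 (R 4.3.3). After filterByExpr and TMM scaling, 13509 genes of all 8 libraries were fitted in 1 robust quasi-likelihood model of the 4 groups without a block, and two-sided p-values were adjusted over these genes (Benjamini-Hochberg). The threshold was a log2 change of 0.6 or more in size, as in the study, with an adjusted p under 0.05. Intervals are 95% intervals of the fit. The self-test on simulated counts met its recovery limit for TGF-β against control in WT. The changes put in were larger than the genotype differences of FBN1 and FBLN2 after TGF-β. No recovery limit was set for the genotype comparisons or the interaction, so the self-test does not measure how well these detect changes. Log2 CPM used a prior count of 2. Replicate numbers were checked as pairs by the correlation of deviations from group means, with the result in the closing section.

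The members and all lists were chosen with earlier results of these data known. Named are all members, RGCC, the 3 partner genes with the largest change past the threshold in each comparison, and for each member the 3 most correlated genes of at least 10 CPM. Cell type lists are given by counts and summed CPM. Alternatives were DESeq2 1.42.0, limma-voom (limma 3.58.1), edgeR on 4 libraries, other scalings and filters, no fold limit, the replicate block, each library left out, and limma on log2(FPKM + 1) and log2(FPKM + 0.1), the first with and without a filter at a mean of 0.5 FPKM. Gene positions are from GENCODE M21 (GRCm38), the assembly also called mm10. Where 1 library of a group was left out, the lone library was assumed to vary like the other groups.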

Additional observations from a re-analysis of the deposited data

How the results depend on the processing

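With 2 libraries a group, all values here lean on the spread shared by the 4 groups. TGF-β calls on all genes numbered 1766 in WT (1017 up, 749 down) and 1529 in KO (869 up, 660 down). They fell to 1096 in WT on log2(FPKM + 1), and to 1078 and 1010 there without the filter, and no fold limit gave 4442 and 3831. With upper quartile scaling the split turned, to 840 up and 1040 down in WT and 720 up and 891 down in KO, with an all-gene median log2 shift of -0.09 and -0.08. It also turned on log2(FPKM + 0.1), to 637 up and 1079 down and 580 up and 1048 down (median shift -0.13 in both), and on log2(FPKM + 1), to 510 up and 586 down and 450 up and 574 down (-0.11 in both). Leaving out single libraries gave 1181 to 1754 calls in WT and 1012 (without KO TGF-β replicate 2) to 1556 in KO, and 5 to 6 and 5 to 7 members. WT against KO after TGF-β gave 6 genes and 0 members, and 33 and 42 genes with 3 members each by DESeq2 on 8 and 4 libraries. It gave 11 genes without control replicate 1, or without 2, of both genotypes (alternatives chosen after seeing the data), and 1 to 10 genes and 0 to 2 members without single libraries. On the 3 FPKM scalings 1 member passed. In control cells 5 genes and 0 members passed, 13 genes by DESeq2 on 8 or 4 libraries with 1 member on 8, 2 genes by edgeR on 4 libraries, 1 without control replicate 1 and 0 without control replicate 2 of both genotypes, and 0 to 4 without single libraries. Unadjusted p-values under 0.05 numbered 913 in that comparison and 1577 after TGF-β. The interaction gave 0 genes in every alternative run.

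Directions of the members after TGF-β did not change in any alternative. Between genotypes, small differences changed sign. After TGF-β, on log2(FPKM + 0.1) and log2(FPKM + 1), FBLN1 had -0.0095 and -0.0093, EFEMP2 0.019 and 0.019, and MFAP2 0.076 and 0.072. Without single libraries ELN ran from -0.23 to 0.72, FBLN1 from -0.11 to 0.17, FBLN5 from -0.26 to 0.28, EFEMP2 from -0.084 to 0.074 and MFAP2 from -0.26 to 0.27. In control cells ELN ran from -1.65 to 2.39 and FBLN5 from -0.032 to 0.46, and FBLN5 had -0.025 without control replicate 2 of both genotypes. For the interaction ELN had -0.079 with limma-voom, -0.27 and -0.16 on log2(FPKM + 0.1) and log2(FPKM + 1), and -0.32 without control replicate 1 of both genotypes, under which FBLN2 had -0.051. MFAP5 had 0.24 on FPKM with either pseudocount. Without control replicate 2 of both genotypes FBLN5, MFAP5 and EMILIN1 had 0.056, 0.22 and 0.0045. Without single libraries the interaction ran from -2.07 to 1.97 for ELN, from -0.45 to 0.092 for FBLN5, from -0.42 to 0.13 for MFAP5 and from -0.47 to 0.11 for EMILIN1. The cause of these shifts was not tested.

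Same-numbered libraries deviated together between the genotypes and oppositely between control and TGF-β, so replicate numbers did not establish pairs over all 4 groups. Deviations of same-numbered libraries correlated at 0.58 between the controls and 0.33 between the TGF-β groups, but at -0.30 (WT) and -0.32 (KO) between control and TGF-β. The replicate block gave 1566 calls in WT, 1317 in KO, 9 genes with 2 members between genotypes after TGF-β, and 4 in control. Crossing the numbers between control and TGF-β, added after seeing the data, gave 2080 and 1830. The crossed block was not run for the genotype comparisons. The main genotype comparisons had no block and did not account for the shared deviations of same-numbered WT and KO libraries.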

Other observations

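ELN was not alone in separating the 2 control replicates in both genotypes. Among 10489 genes with a mean of at least 10 CPM it took rank 5 by the mean log2 excess of control replicate 1 over control replicate 2, which was 2.83 for ELN against a median absolute value of 0.074 over these genes. Both controls differed by more than 2 log2 units in the same sense for 7 genes. The following genes were named after their values were seen. STRA6, a receptor for retinol-binding protein, had 7.93 and 8.74 CPM in replicate 1 of the WT and KO controls and 0.00 in replicate 2 of both. CRISPLD2, a secreted matrix protein, had 19.5 and 22.2 CPM against 1.85 and 1.42. IL6, an inflammatory cytokine, ran the other way, with 0.00 CPM in replicate 1 of both and 16.1 and 15.6 in replicate 2. After TGF-β the same genes had 8.79 and 36.1 CPM (STRA6), 37.9 and 80.5 (CRISPLD2) and 40.6 and 21.9 (IL6) in WT. FBLN5, MFAP2 and MFAP5, the other members with control replicate 1 above 2 in KO by more than 1.3-fold, differed by 1.40-fold, 1.47-fold and 1.32-fold there. In the WT controls the same ratios were 1.01, 1.14 and 0.815, so these members did not share the split of ELN in both genotypes.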
